A study of Arabidopsis thaliana with 4 samples.

Results

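The expansin superfamily of Arabidopsis thaliana was followed in hsfb1 hsfb2b double mutant and wild-type seedlings after mild heat. Its 34 members here are the 25 alpha-expansins (EXPA), 5 beta-expansins (EXPB) and 4 expansin-like genes (EXLA and EXLB) whose locus names a non-control probe of the array carried, out of 25665 loci named on it. Each member had 1 probe. Both genotypes were in the Columbia-0 background, were 5 d old, had been grown together on the same plates at 23 °C, and were harvested after 30 min in water at 32 °C. The mutant carries mutations in HSFB1 and HSFB2B, class B heat shock factors known as transcriptional repressors. Each of the 4 replicates was 1 two-colour array that held many pooled plants of each genotype, with the mutant in Cy3 on replicates 1 and 3 and in Cy5 on replicates 2 and 4.

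Expansins are secreted wall proteins that loosen growing cell walls at acid pH by loosening the contacts between cellulose and other wall polysaccharides, without cutting them. Plasma membrane proton pumps acidify the wall and so set the condition under which expansins act. Alpha-expansins are the classical wall-loosening proteins of seedlings, with single members tied to root hairs, leaf growth or germination. Beta-expansins include the grass pollen allergens, and the expansin-like proteins have the same domain layout but no proven loosening activity.

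The labels were checked first on the mutated genes. Both fell far below the wild type, with HSFB1 at -5.79 ± 0.03 and HSFB2B at -4.68 ± 0.07 (log2 ratio of mutant to wild type, SE, n = 4 arrays). The share of non-control spots that stood well above background ran from 58.7% to 60.9% over the channels. Saturation was seen on none of them. That there were 4 arrays limits the precision of every ratio. The values compare the genotypes in heat and not the response to heat, since seedlings kept at 23 °C were not analysed here.

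Of the 34 expansin genes, 24 were bright enough to test, and these were mostly alpha-expansins (18), with 2 beta-expansins and all 4 expansin-like genes. In the double mutant 9 were higher, 4 were lower and 11 did not pass the threshold (limma adjusted p of 0.05, adjusted over all 19314 genes tested). The background over all genes was 29.8% called, with 16.6% higher and 13.1% lower. The members stood at 54.2% called, 37.5% higher and 16.7% lower, so the share lower was near the background. The median log2 ratio of the 24 genes was 0.08, against 0.00065 over all genes, and single genes ran from -0.29 to 0.76. The changed expansins had a median absolute log2 ratio of 0.29, against 0.19 for all changed genes. The numbers higher and lower were 7 and 2 without replicate 3, and between 9 and 10 and at 3 without each of the others. Over all genes 11.7% were called without replicate 3, and from 17.4% to 31.0% without each of the others.

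**Figure D1:**
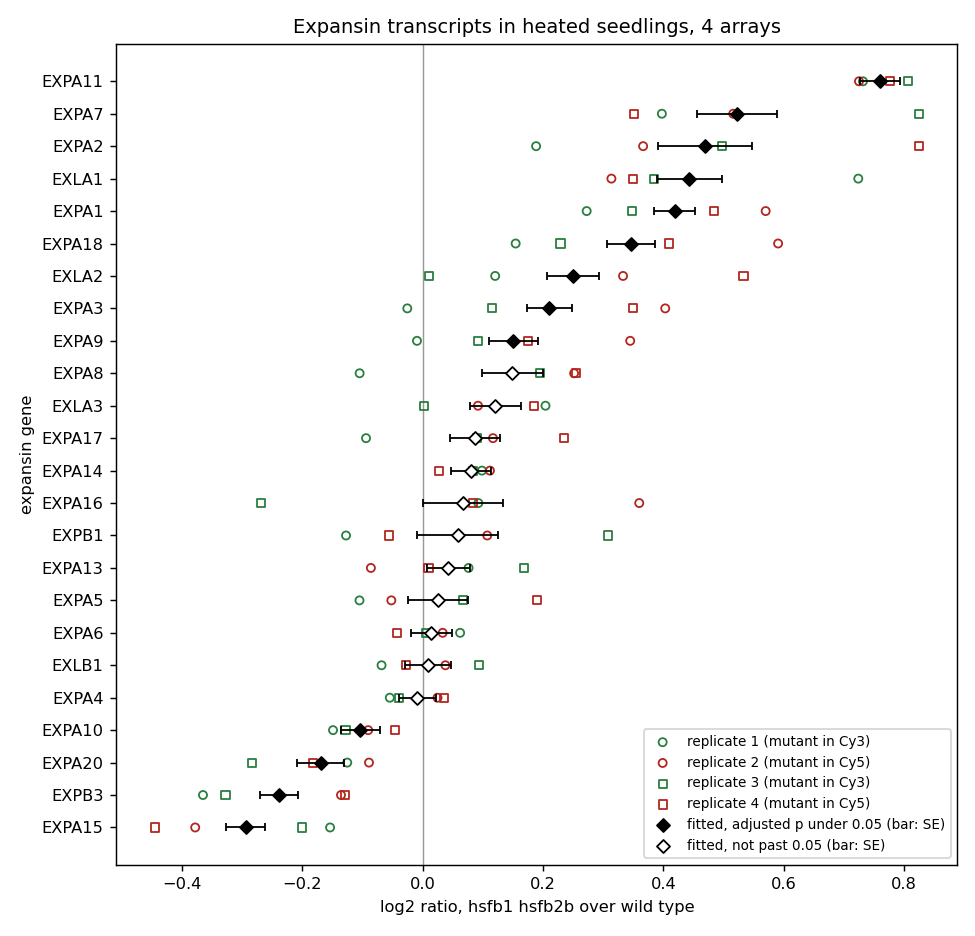
Log2 ratio of double mutant over wild type for the 24 expansin genes tested, with the 4 arrays as open symbols coloured by the dye of the mutant, and the fitted value as a diamond with its SE (filled where the limma adjusted p was under 0.05). EXPA11 stands highest at 0.76 with its arrays close together, and EXPA15 stands lowest at -0.29.

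EXPA11 (AT1G20190), an alpha-expansin, differed most. Its normalised signals (arbitrary units, after background correction and loess, with an offset of 50 included) were 3122, 4154, 3511 and 6471 in the mutant for replicates 1 to 4, and 1881, 2514, 2008 and 3780.2 in the wild type. The mutant channel was the brighter on each array by a nearly constant factor, although the signal ranges of the genotypes overlap between arrays. The log2 ratios of the 4 arrays were 0.73, 0.72, 0.81 and 0.78. The fitted ratio was 0.76 ± 0.03 (SE, n = 4 arrays, 95% interval 0.68 to 0.84), which is 1.69-fold higher (limma adjusted p = 4.1e-05). The means of the dye orientations were 0.77 (mutant in Cy3) and 0.75 (mutant in Cy5). From the highest fitted ratio down, EXPA11 ranked 76 among all genes tested. On this signal scale a probe without clear signal does not read 50, and its level differs between arrays. EXPA21, which was too dim to test, read 243, 223, 146 and 83 units in the mutant on replicates 1 to 4.

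The root hair expansins EXPA7 (AT1G12560) and EXPA18 (AT1G62980), whose expression is known to mark root hair cells, were both higher. EXPA7 had mutant signals of 859.7, 1303, 1236 and 837 and wild-type signals of 653, 911, 698 and 657 for replicates 1 to 4. Replicates 1 and 4 were close to each other and replicate 3 had the widest gap between genotypes. The EXPA7 ratio was 0.52 ± 0.07 (SE, n = 4 arrays), or 1.44-fold (limma adjusted p = 0.0016), with arrays from 0.35 to 0.82. EXPA18 had mutant signals of 448, 568, 406 and 345 and wild-type signals of 403, 377, 346 and 259.9. Its ratio was 0.35 ± 0.04, or 1.27-fold (limma adjusted p = 0.0010), and was higher with the mutant in Cy5 (0.50) than in Cy3 (0.19). EXPA18 was a dim probe, and with a normexp offset of 0 its ratio was 0.40. The Feature Extraction processed signals, which also carry no offset, gave 0.64 and the centred series values 0.65. For EXPA7 these 3 settings gave 0.55, 0.61 and 0.62. The cause of the differences between settings was not tested.

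Most of the other root genes listed were higher on the same arrays. The lists were chosen with earlier results of these data known, so their counts are a description only. Over all genes tested 16.6% were higher and 13.1% lower. Of 13 listed root hair genes other than expansins, 12 were tested, and 10 were higher, none was lower and 2 did not pass, with a median log2 ratio of 0.28. The genes with the smallest p were XTH14, a wall enzyme gene, at 0.52 ± 0.06, PRP3, a root hair wall protein gene, at 0.42 ± 0.05, and RSL2, a transcription factor of root hair growth, at 0.37 ± 0.05 (SE, n = 4 arrays, limma adjusted p = 0.00072, 0.0012 and 0.0024). Summed over this list, the normalised signal was 10826 to 13974 units in the mutant and 8823 to 10084 in the wild type, and higher in the mutant on 4 of 4 arrays. Over the 15 alternatives 7 to 11 of the 12 were higher and 0 lower, with a median of 0.56 in the processed signals. Of 11 other root tissue markers 7 were higher and 2 lower, with a median of 0.31. The higher ones included the Casparian strip gene CASP1 (0.48 ± 0.03) and the epidermal regulator WER (0.40 ± 0.04). The 2 lower were SHR (-0.16 ± 0.03) and WOX5 (-0.13 ± 0.04, limma adjusted p = 0.012 and 0.032), and SCR and GL2 did not pass. The sums over the 11 markers were 58125 to 65944 units in the mutant and 41535 to 54177 in the wild type. Of 10 leaf photosynthesis markers 6 were lower and 1 higher, with a median of -0.14, and their sums overlapped (900668 to 1509640 units in the mutant, 1075680 to 1436700 in the wild type). The sign of all 6 turned with the dye, with means from -1.12 to -0.37 with the mutant in Cy3 and from 0.05 to 0.58 in Cy5. The leaf calls depended on the processing, with 0 lower in the series values and with no dye term and 7 lower with median centring. The part of the root and leaf markers in the expansin differences was not tested. In whole seedlings more cells of a type and more RNA per cell cannot be told apart.

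EXPA17 (AT4G01630) and EXPA14 (AT5G56320), alpha-expansins with known roles in lateral root formation, did not pass in the reported fit. EXPA17 had log2 ratios of -0.09, 0.12, 0.09 and 0.23 on replicates 1 to 4 (fitted 0.09, 95% interval -0.01 to 0.19, limma adjusted p = 0.16). EXPA14 was above 0 on each array, from 0.03 to 0.11 (fitted 0.08, 95% interval 0.0029 to 0.16, limma adjusted p = 0.11). EXPA14 passed in 3 of 15 alternatives, at 0.15 without background correction, 0.26 in the uncentred series values and 0.08 in the separate-channel fit. Both probes were dim, and in the processed signals EXPA17 stood at 0.28 ± 0.16 and EXPA14 at 0.18 ± 0.06 (SE, n = 4 arrays).

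EXPA1 (AT1G69530), an alpha-expansin known for its activity in guard cells, was higher in the mutant on each array. Its signals were 6333, 6809.9, 7484 and 9583 in the mutant and 5243, 4588, 5880.3 and 6852 in the wild type. The lowest mutant signal lay below the highest wild-type signal, so the ranges overlapped between arrays while each array had the mutant above. The ratio was 0.42 ± 0.03 (SE, n = 4 arrays), or 1.34-fold (limma adjusted p = 0.00027). The orientation means were 0.31 (mutant in Cy3) and 0.53 (mutant in Cy5).

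EXPA2 (AT5G05290), known for its part in seed germination, was higher by an amount that depended on the processing. Its signals were low, at 296, 315, 227 and 232 in the mutant and 259.5, 244, 161 and 131 in the wild type. For comparison, EXPA21, which was too dim to test, read 248, 227, 152 and 79 in the wild type. The EXPA2 wild-type signals thus lay little above those of a probe without clear signal, and the size of its ratio is uncertain. The array ratios were 0.19, 0.37, 0.50 and 0.82, and the fitted ratio was 0.47 ± 0.08 (SE, n = 4 arrays, 1.38-fold, limma adjusted p = 0.0046). In the Feature Extraction processed signals it was 1.71 ± 0.21 (limma adjusted p = 0.011) and in the centred series values 1.72, the highest of any expansin there. Without background correction it was 0.70, and with a normexp offset of 0 it was 0.65 ± 0.13 (limma adjusted p = 0.020). Of 5 seed storage markers only CRA1 and OLEO1 were bright enough to test, at 0.14 and 0.08, and neither passed. Their median was 0.11 in this fit, 0.66 in the processed signals and 0.67 in the centred series values, and both passed without background correction, where the median was 0.17.

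EXPA3 (AT2G37640) and EXPA9 (AT5G02260) were higher by smaller amounts and with array values on both sides of 0. EXPA3 had array ratios of -0.03, 0.40, 0.11 and 0.35 and a fitted ratio of 0.21 ± 0.04 (SE, n = 4 arrays, limma adjusted p = 0.0057). With the mutant in Cy3 the EXPA3 mean was 0.04, against 0.38 in Cy5. EXPA9 had array ratios of -0.0092, 0.34, 0.09 and 0.18 and a fitted ratio of 0.15 ± 0.04 (limma adjusted p = 0.029), with orientation means of 0.04 and 0.26. The EXPA9 probe was dim, with mutant signals of 369 to 559 units, against 2760 to 4060 for EXPA3. In the processed signals their order turned, with EXPA9 at 0.26 and EXPA3 at 0.22. The EXPA3 call did not survive leaving out replicate 3 (0.18) or the dye term, nor median centring (0.14). EXPA9 lost its call without replicate 1 (0.18), 2 (0.11) or 3 (0.13), with a normexp offset of 0, when the dye term was dropped, with median centring and, at larger values of 0.26 and 0.27, in the scanner software's processed signals and the centred series values.

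**Figure D2:**
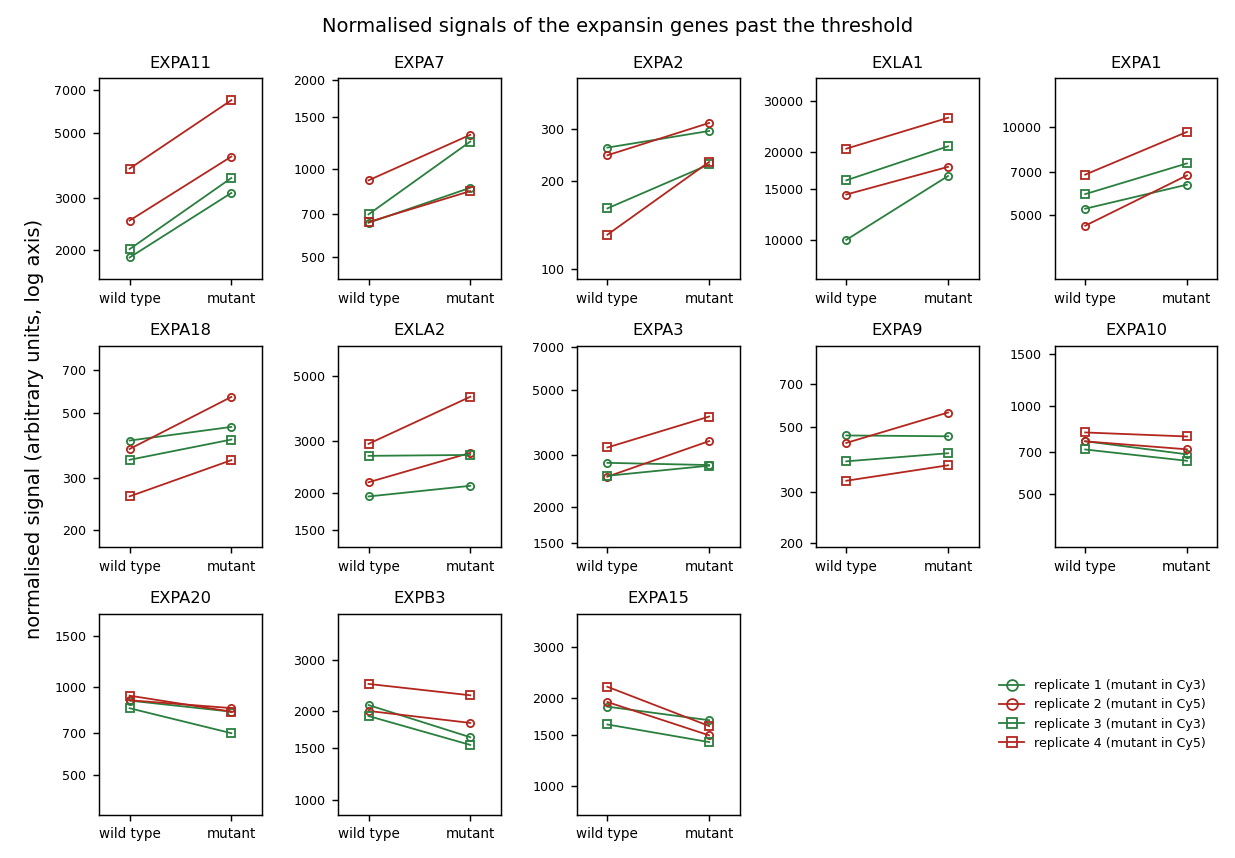
Normalised signals (arbitrary units, log axis, the same fold range in each panel) of the 13 expansin genes past the threshold, with wild type on the left and double mutant on the right, 1 line for each array, coloured by the dye of the mutant. All 4 lines climb for EXPA11, EXPA7, EXPA2, EXLA1, EXPA1, EXPA18 and EXLA2 and fall for EXPA10, EXPA20, EXPB3 and EXPA15, while EXPA3 and EXPA9 each have 1 line that does not climb.

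Lower in the mutant were 3 alpha-expansins and 1 beta-expansin, each on 4 of 4 arrays. EXPA15 (AT2G03090) had mutant signals of 1682, 1494, 1417 and 1607 and wild-type signals of 1871, 1941, 1627 and 2188. Its array ratios were -0.15, -0.38, -0.20 and -0.44, and the fitted ratio was -0.29 ± 0.03 (SE, n = 4 arrays), or 1.23-fold lower (limma adjusted p = 0.00091). The decrease was smaller with the mutant in Cy3 (-0.18) than in Cy5 (-0.41). EXPB3 (AT4G28250), one of the 2 beta-expansins tested, had mutant signals of 1631, 1825, 1536 and 2268 and wild-type signals of 2100.2, 2005, 1927 and 2479. Its ratio was -0.24 ± 0.03, or 1.18-fold lower (limma adjusted p = 0.0018), and its orientation means ran the other way from those of EXPA15, with -0.35 in Cy3 and -0.13 in Cy5. Of 15 alternatives, 1 ended the EXPB3 call, the series values uncentred (-0.16).

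EXPA20 (AT4G38210) had array ratios of -0.13, -0.09, -0.28 and -0.18 and a fitted ratio of -0.17 ± 0.04 (SE, n = 4 arrays, limma adjusted p = 0.017). The processed signals gave -0.27. Leaving out replicate 3 (-0.13), median centring, dropping the dye term and the uncentred series values each ended its call. EXPA10 (AT1G26770), known for its part in leaf and petiole growth, had array ratios of -0.15, -0.09, -0.13 and -0.05. Its fitted ratio of -0.10 ± 0.03, or 1.07-fold lower (limma adjusted p = 0.046), was the smallest of the changed expansins. It lost its call when any replicate was left out (-0.11 to -0.09) and in 4 other alternatives.

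Among the 4 expansin-like genes 2 were higher. EXLA1 (AT3G45970) had mutant signals of 16587, 17823, 20939 and 26198 and wild-type signals of 10045, 14339.8, 16034 and 20550.2. Its array ratios were 0.72, 0.31, 0.39 and 0.35, with replicate 1 above the others, and the fitted ratio was 0.44 ± 0.05 (SE, n = 4 arrays), or 1.36-fold (limma adjusted p = 0.0013). Without replicate 1 it was 0.36. EXLA2 (AT4G38400) had array ratios of 0.12, 0.33, 0.01 and 0.53, which followed the dye (means of 0.07 and 0.43). Its fitted ratio was 0.25 ± 0.04 (limma adjusted p = 0.0054), which median centring (0.18) and dropping the dye term each took below the threshold.

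EXLA3 (AT3G45960) lies near EXLA1 on chromosome 3, with 1 annotated gene between them in the RefSeq annotation of TAIR10.1. It had array ratios of 0.20, 0.09, 0.0022 and 0.18 and a fitted ratio of 0.12 (95% interval 0.02 to 0.22, limma adjusted p = 0.069). EXLA3 passed in 6 of 15 alternatives, among them the processed signals (0.29) and the series values when centred (0.30). The fourth expansin-like gene, EXLB1 (AT4G17030), stood at 0.0090 (95% interval -0.08 to 0.10), with arrays on both sides of 0.

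The remaining tested expansins did not pass. EXPA8 (AT2G40610) had array ratios of -0.10, 0.25, 0.20 and 0.25 and a fitted ratio of 0.15 (95% interval 0.03 to 0.27, limma adjusted p = 0.059). Without replicate 1 it was 0.22 and passed the threshold (limma adjusted p = 0.020), as it did without replicate 2 (0.15) and in the uncentred series values (0.24). EXPA5 (AT3G29030), an alpha-expansin linked to brassinosteroid-dependent growth, stood at 0.03 (95% interval -0.09 to 0.14). EXPA6 (AT2G28950) stood at 0.01 (-0.06 to 0.09), with an interval in this fit that leaves out a ratio as large as that of EXPA1. EXPA4 (AT2G39700) stood at -0.0085 (-0.08 to 0.06), but its probe was dim, with mutant signals of 131 to 281 units. The offset draws ratios of dim probes towards 0, so this interval does not bound the EXPA4 change. In the processed signals EXPA4 stood at -0.04 ± 0.11 (SE, n = 4 arrays). EXPA13 (AT3G03220) stood at 0.04 (-0.04 to 0.13). EXPA16 (AT3G55500) and the beta-expansin EXPB1 (AT2G20750) had wider intervals, -0.09 to 0.22 and -0.10 to 0.22, and arrays on both sides of 0 (-0.27 to 0.36 and -0.13 to 0.31).

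Consistency across arrays was also counted without the fit. Of the 24 tested genes 9 had a ratio above 0 on all 4 arrays (background 19.0%) and 4 had a ratio below 0 on all 4 (background 16.3%). The first 9 were EXPA1, EXPA2, EXPA7, EXPA11, EXPA14, EXPA18, EXLA1, EXLA2 and EXLA3, so EXPA3 and EXPA9 were not among them. The array medians of the 24 genes were 0.03, 0.11, 0.09 and 0.18 for replicates 1 to 4, while those of all genes were between -0.0028 and 0.01. A dye effect passed the threshold for 4 members, EXPA3, EXPA15, EXPA18 and EXLA2 (background 18.1%).

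The proton pump genes that acidify the wall were read from the same fit. Of 11 listed AHA genes 8 were tested, and 3 were higher, none was lower and 5 did not pass, with a median of 0.09. Over all genes tested 16.6% were higher, and this list too was chosen with earlier results known. AHA2, the main pump of the root together with AHA1, was at 0.25 ± 0.03 (SE, n = 4 arrays, limma adjusted p = 0.0019), with arrays from 0.18 to 0.33. AHA1 did not pass (0.09 ± 0.04, limma adjusted p = 0.15), with arrays from -0.12 to 0.35. AHA11 was at 0.21 ± 0.03 and AHA7 at 0.36 ± 0.06 (limma adjusted p = 0.0039 and 0.0041). With median centring 1 of the 8 pump genes was higher, and 2 were with no dye term. In 5 alternatives, the processed signals among them, 1 pump gene was lower.

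**Figure D3:**
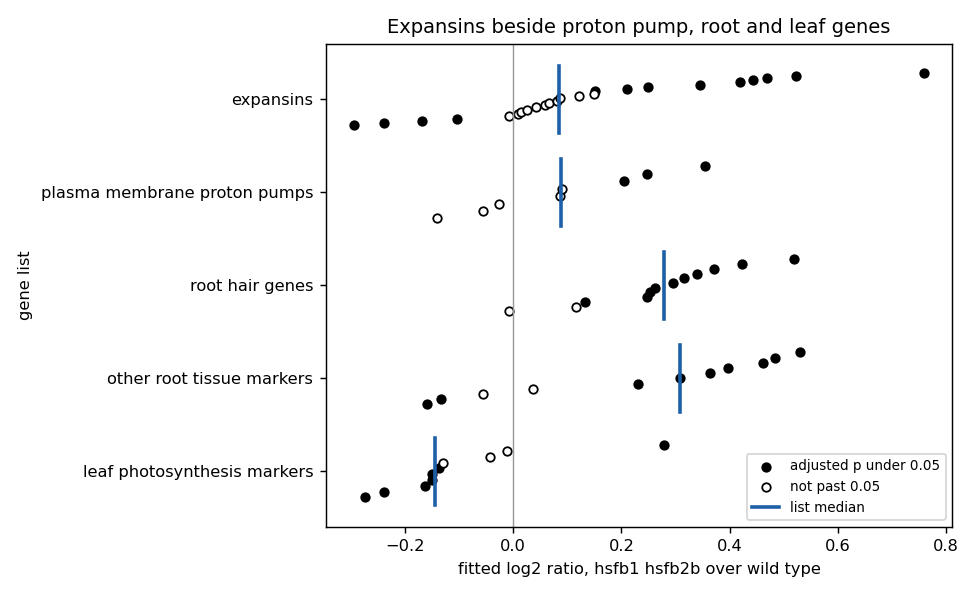
Fitted log2 ratios of double mutant over wild type for the tested genes of 5 lists, with filled symbols where the limma adjusted p was under 0.05 and a bar at each list's median. The expansin genes spread from -0.29 to 0.76 around a median of 0.08, while the root hair genes have a median of 0.28 and the leaf markers of -0.14.

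For 10 members the probe was too dim to test: EXPA12 (AT3G15370), the 6 genes EXPA21 to EXPA26, and the beta-expansins EXPB2 (AT1G65680), EXPB4 (AT2G45110) and EXPB5 (AT3G60570). EXPA21, EXPA22, EXPA23, EXPA26, EXPA25 and EXPA24 follow one another on chromosome 5 in that order, with 0 annotated genes between neighbours in the RefSeq annotation. Background-subtracted signals of the 6 cluster genes were between 2 and 40 units in the mutant and between 8.5 and 34 in the wild type. None of the 6 was well above background in any wild-type channel. The same held for the 4 others. In the mutant EXPA12 and EXPA22 passed that mark on 1 array each and the rest on 0. These 10 genes were left out of the fit.

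**Figure D4:**
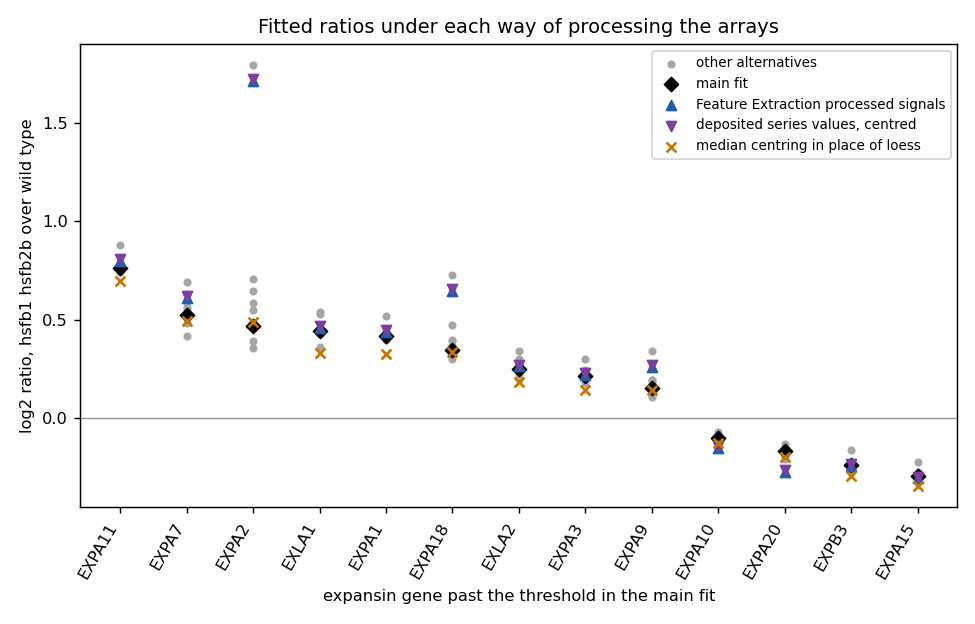
Fitted log2 ratio of double mutant over wild type for each of the 13 changed expansin genes (horizontal axis) in the main fit and in 15 other ways of processing the arrays. The signs hold throughout, EXPA11 stays between 0.70 and 0.88, and EXPA2 runs from 0.35 to 1.79.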

How the data were processed

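Seedling RNA was hybridised to 4 two-colour Agilent arrays and extracted with Agilent Feature Extraction 9.1.3.1, per the file headers. The deposited spot and background values are intensity values (median pixel brightness), and its processed signals are background-subtracted, dye-normalized intensity values. Per the file headers, a log10 ratio of processed red over green was deposited too. The deposited series values hold the ln (natural log) of the mutant to wild-type ratio, found from slopes of 0.999 to 1.001 against the scanner ratios. How they were centred is unknown, and their column medians were 0.0458, 0.0813, 0.107 and -0.0011.

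From the median signals, background was corrected with normexp (offset 50, which draws ratios of dim probes towards 0), ratios were normalized by loess, and outlier-marked spots (190 to 399 of 37685 per array) were left out. Probes had to be well above background in all 4 channels of a genotype and have 3 ratios, and the brightest probe per gene was used, which left 19314 genes. Log2 ratios were fitted in limma 3.58.1 under R 4.3.3, with the dye as a term for each gene, eBayes and Benjamini-Hochberg adjustment, two-sided. The array paired the genotypes. The fit was tested on simulated data. RefSeq matched 19217 of the tested genes. The members and lists were chosen with earlier results of these data known. All 34 members could be named, and of other lists up to 3 genes with the smallest p, of which 1 is not reported here. Promoter and protein sequences were not analysed here.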

Additional observations from a re-analysis of the deposited data

Results flagged for a closer look

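EXPA8 stood apart on 1 array: its log2 ratio was -0.10 on replicate 1, against 0.20 to 0.25 on the others, a gap larger than Dixon's 95% limit for 4 values. Chance alone marks about 1 in 20 such groups, and 24 genes were looked at.

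Among the probes too dim to test, EXPA12 was well above background in the double mutant on replicate 2, with a background-subtracted signal of 83.5 units against 30 in the wild type, and on no other array or wild-type channel. On the other arrays its mutant signals were 34.5, 32 and 29 units. EXPA22 was well above background in the double mutant on replicate 1, with 40 units against 21 in the wild type, and on replicates 2 and 4 its mutant signals of 14.5 and 5 units lay below the wild-type signals of 28.5 and 34. Both were left out of the reported fit. With no filter on brightness EXPA12 passed the threshold (0.14 ± 0.03, SE, n = 4 arrays, limma adjusted p = 0.020), the only one of the 10 dim members that did, and EXPA22 did not (limma adjusted p = 0.38).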

How the results depend on the processing

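In 15 alternatives 7 of the 13 changed expansins (EXPA1, EXPA2, EXPA7, EXPA11, EXPA15, EXPA18 and EXLA1) kept direction and call, and the other 6 kept direction but lost the call in at least 1. The number of expansins lower, 4 in the reported fit, was 1 in the series values uncentred, 2 with median centring, 2 with no dye term, and 2 to 3 with a replicate left out (2 without replicate 3). With median centring one spread served every gene. The number higher was 6 with median centring, 6 with no dye term, 12 in the uncentred series values, and 7 to 10 with a replicate left out. The members' median was 0.17 in the processed signals, 0.18 in the centred and 0.25 in the uncentred series values, 0.066 with median centring, 0.036 with no filter on brightness (34 genes, 10 higher with EXPA12), and 0.08 to 0.10 with a replicate left out. The cause of these shifts was not tested.

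Over all genes the share of calls that were higher was 55.8%, against 45.5% with median centring, 68.0% with no dye term and 80.0% in the uncentred series values. The percentage of genes called was 29.8% in the reported fit, 9.45% with no dye term, 13.2% with median centring and 30.7% in the uncentred series values. It was 17.4%, 31.0%, 11.7% and 27.3% without replicates 1 to 4. Of 19314 genes, 3208 were higher and 2539 lower in the reported fit, and 4737 and 1186 in the uncentred series values. The numbers were 1159 and 1388 with median centring, and 1242 and 584 with no dye term.

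Signs turned in 16 cases over 7 genes that had not passed, none beyond 0.10 in size. With median centring EXLB1 stood at -0.049, EXPA13 at -0.0092, EXPA5 at -0.036 and EXPA6 at -0.10. In the processed signals EXLB1 was at -0.0095 and EXPA6 at -0.00026. The series values gave EXLB1 -0.00018 when centred and EXPA4 0.043 when not. With a replicate left out EXLB1 ranged from -0.031 to 0.049, EXPA5 from -0.035 to 0.086, EXPA6 from -0.0044 to 0.034, EXPA16 from -0.023 to 0.16 and EXPB1 from -0.051 to 0.17. The separate-channel fit with the array as a replicate block gave 11 expansins higher and 4 lower. It called 39.9% of all genes, against 29.8% in the reported fit.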
